A study of Mus musculus with 18 samples.

Results

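Conjugation is the step of drug and hormone metabolism that joins a small molecule to a polar group, and 3 enzyme families that do this in mouse liver were followed through liver regrowth. They are the glutathione S-transferases (Gst), the UDP-glucuronosyltransferases (Ugt) and the cytosolic sulfotransferases (Sult). The rule for genes used names and depth, and no change between groups, though it was chosen with earlier results of these data known. A row counted if its symbol began with Gsta, Gstm, Gstp, Gstt, Gstk, Gsto, Ugt1a, Ugt2a, Ugt2b, Ugt3a, Sult1, Sult2, Sult3 or Sult5, if it was no pseudogene, and if it held 30 or more reads summed over the 16 complete tables. Of 17180 genes listed in all, 51 matched by name and 42 passed, namely 18 Gst, 17 Ugt and 7 Sult genes. Nearest to the minimum from above were Ugt1a7c with 54 reads and Ugt1a10 with 76. The 9 genes below it had 1 to 9 reads each and are not described further: Gsto2, Sult1c1, Sult2a1, Sult2a5, Sult2a6, Sult2b1, Sult3a1, Ugt1a2 and Ugt2a1. No Sult3 gene passed.

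The libraries came from the liver of C57BL/6 mice at 0.5, 2, 4, 24, 48, 72, 120 and 168 h after 2/3 partial hepatectomy (PH), the removal of most of the liver, and from the liver of C57BL/6 mice after a sham operation. Each of the 9 groups had 2 libraries, and every library holds the pooled RNA of 3 mice, so n = 2 pools in every group below, and p-values measure the spread between pools rather than between mice. The labels give neither the sex of the mice nor the time at which sham livers were taken. Library totals were 7775 to 9164 in units of 1000 uniquely mapped reads, and the 42 genes took 0.503% to 1.21% of them. The tables of sham replicate 2 and 0.5 h replicate 1 list only their more abundant genes: a gene absent from them is unknown up to 6.52 and 19.0 CPM (read counts scaled to a common library total). Of the 42 genes, 30 were therefore tested in all 18 libraries and 10 in the 16 complete ones, where sham and 0.5 h have 1 library each that is assumed to vary like the others. Ugt1a10 and Ugt1a7c were too low to test. All 8 of the hepatocyte markers were detected, with a summed level of 75070 to 163055 CPM in the complete libraries. In bulk liver, fewer cells of a type and less RNA per cell cannot be told apart.

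Glutathione S-transferases join electrophiles such as lipid aldehydes and epoxides to glutathione. UDP-glucuronosyltransferases of the endoplasmic reticulum join glucuronic acid to bilirubin, steroids, bile acids and drugs. Sulfotransferases pass a sulfate group from PAPS, the activated form of sulfate, to phenols and steroids. Many Gst genes are known targets of the oxidant-responsive factor NRF2, and the nuclear receptors CAR and PXR and the aryl hydrocarbon receptor act on members of all 3 families.

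A change is called below where edgeR's quasi-likelihood test gave a Benjamini-Hochberg adjusted p under 0.05 over all genes of the test. CPM values are scaled by TMM factors, log2 fold changes have their standard error (SE) after them, and group means are given ± SD. The test called 34 of the 40 tested genes in at least 1 of 10 comparisons, and 31 at some time against sham. Over all groups 29 of the 30 genes tested in 18 libraries differed, against 68.6% of all genes there, and 7 of the 10 genes tested in 16 libraries, against 42.8%.

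At 4 h 12 of the 30 genes tested in 18 libraries were called, 3 higher and 9 lower than in sham, where 35.7% of all 4906 genes were called, 16.9% higher and 18.8% lower. At 24 h 13 of the 30 were called, 4 higher and 9 lower, against 17.3% of all genes, 7.87% higher and 9.46% lower. At 48 h 19 of the 30 were called, 5 higher and 14 lower, against 36.8%, 18% higher and 18.9% lower. At 72 h 17 of the 30 were called, 7 higher and 10 lower, against 12.6%, 6.16% higher and 6.42% lower. At 168 h 5 of the 30 were called, 2 higher and 3 lower, against 5.75%, 2.41% higher and 3.34% lower. The share at 4 h was thus near that of all genes, while those at 24, 48, 72 and 168 h lay above it. Each of the 5 calls at 168 h was lost with some library left out. Of the 10 genes tested in 16 libraries, 1, 2, 2, 3 and 0 were called at 4, 24, 48, 72 and 168 h, where 15.5%, 2.93%, 14.9%, 3.82% and 0.082% of all 12199 genes were. At 4 h the 1 gene was higher, as were 7.22% of all genes, while 8.25% were lower. At 24 h 1 was higher and 1 lower, where 1.26% and 1.66% of all were. At 48 h 1 was higher and 1 lower, where 7.66% and 7.25% were, and at 72 h 2 were higher and 1 lower, where 2.53% and 1.29% were.

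No conjugation gene was called by edgeR at 0.5, 2 or 120 h, where 0.204%, 8.76% and 0.775% of the 4906 genes and 0.0492%, 2.65% and 0.107% of the 12199 were. At an unadjusted p under 0.05 the counts of 40 were 8 at 0.5 h, 7 at 2 h and 21 at 120 h, where 17.2%, 20.2% and 16.9% of the 4906 genes and 6.2%, 14.7% and 11.9% of the 12199 were. DESeq2 called 2, 3 and 5 genes at those times, where it called 2.53%, 12.1% and 4.04% of the 4906 and 0.172%, 3.5% and 0.639% of the 12199. Limma-trend on log2(RPKM + 1) called 0, 2 and 0, where it called 0.183%, 12.6% and 0.815% of the 4906 and 0.0574%, 3.05% and 0.0492% of the 12199.

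The families did not move together. At 48 h the Ugt genes had 10 of 15 called lower and none higher, with a median log2 fold change of -0.97. The Gst genes had 5 of 18 called higher and 3 lower, with a median of 0.33, and the Sult genes had 1 of 7 called higher and 2 lower, with a median of -0.23. Over all 4906 genes the median was -0.01, with 18% called higher and 18.9% lower. Of the 12199 genes, 7.66% were called higher and 7.25% lower. At 72 h the counts were 9 lower and 1 higher of 15 for Ugt, with a median of -0.77, and 7 higher and 2 lower of 18 for Gst, with a median of 0.65. There 6.16% of the 4906 genes were higher and 6.42% lower, and 2.53% and 1.29% of the 12199. Because genes tested in 18 libraries had to be listed in both short tables, a gene that starts low in sham could not enter that test. Sult1e1 and Gsta1 entered the test of 16 libraries only through operated groups where they were high, which favoured calls of higher.

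**Figure D1:**
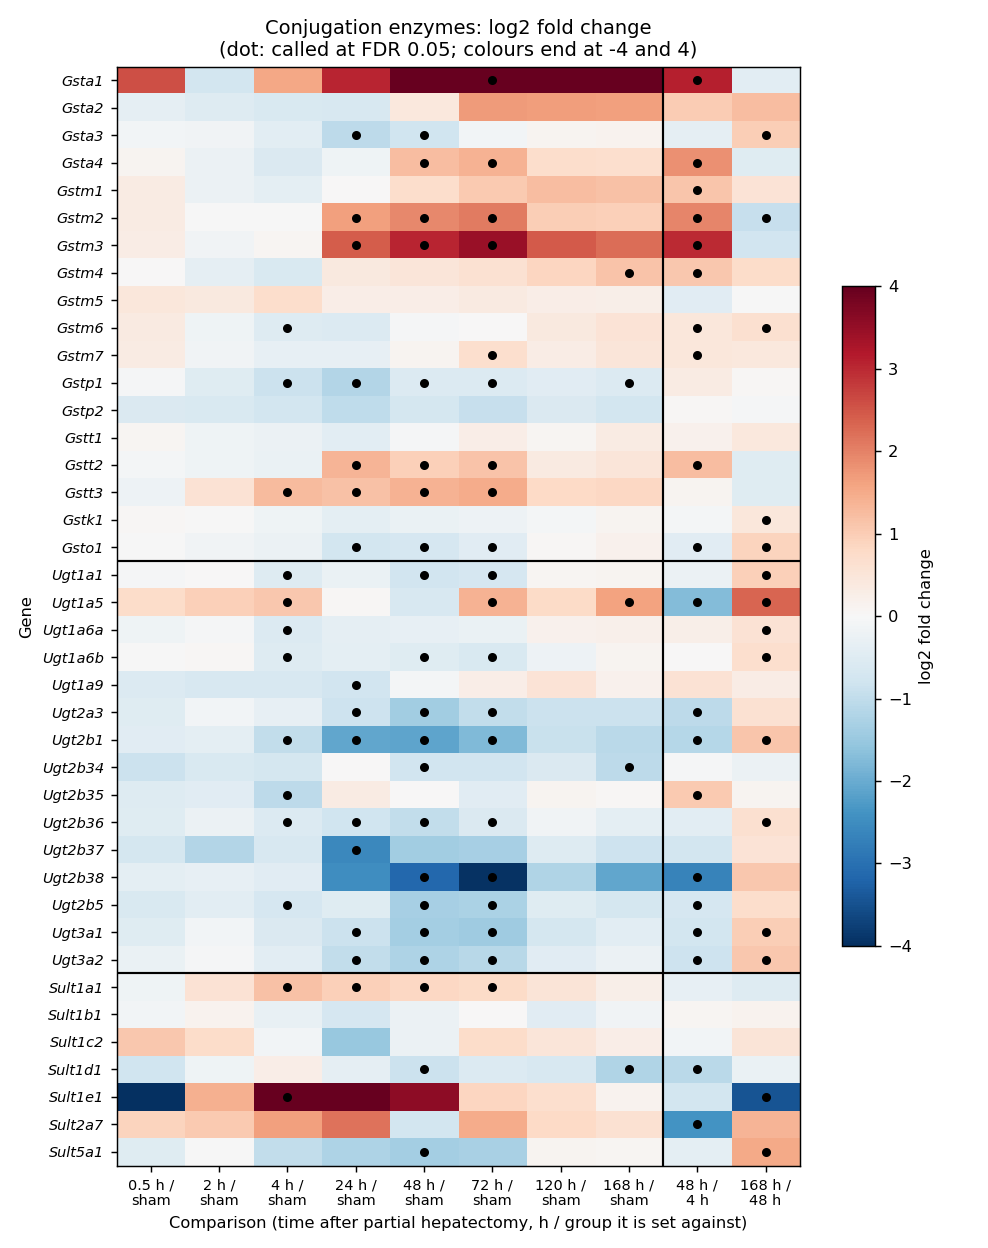
Log2 fold change of the 40 tested genes (rows, by family) in each of 10 comparisons (columns), red for higher and blue for lower in the later or operated group, with a dot where the change was called at an FDR of 0.05. Dots crowd the Ugt rows at 48 and 72 h, mostly on blue cells, and lie on red cells in the Gstm2, Gstm3, Gstt2 and Gstt3 rows from 24 to 72 h.

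Scaled by TMM, the summed level of the Ugt genes was lowest at 48 h, while scaled by totals alone it was lowest at 4 h (means 2258 CPM at 4 h and 2344 CPM at 48 h). By TMM it was 2186 and 1958 CPM at 48 h and 2550 and 2046 CPM at 72 h, against 4945 and 4266 CPM in sham. At every time but 2 h both Ugt pools lay below both sham pools. They had 2912 and 3610 CPM at 0.5 h and 3163 and 2907 CPM at 168 h. The Gst sum was 3324 and 3783 CPM at 4 h and 6226 and 7641 CPM at 72 h, against 4802 and 4697 CPM in sham. The Sult sum was 737 and 783 CPM at 4 h, against 354 and 479 CPM in sham. In each of these comparisons the pools of the operated group lay on one side of both sham pools. Sult1a1 alone held 611 and 615 CPM of the Sult sum at 4 h, against 222 and 327 CPM in sham. Gstm1, called at no time against sham, held 2066 and 3316 CPM of the Gst sum at 72 h, against 1387 and 1202 CPM. These sums therefore do not show that all their members moved alike. Sums of the short tables leave out the unlisted genes.

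**Figure D2:**
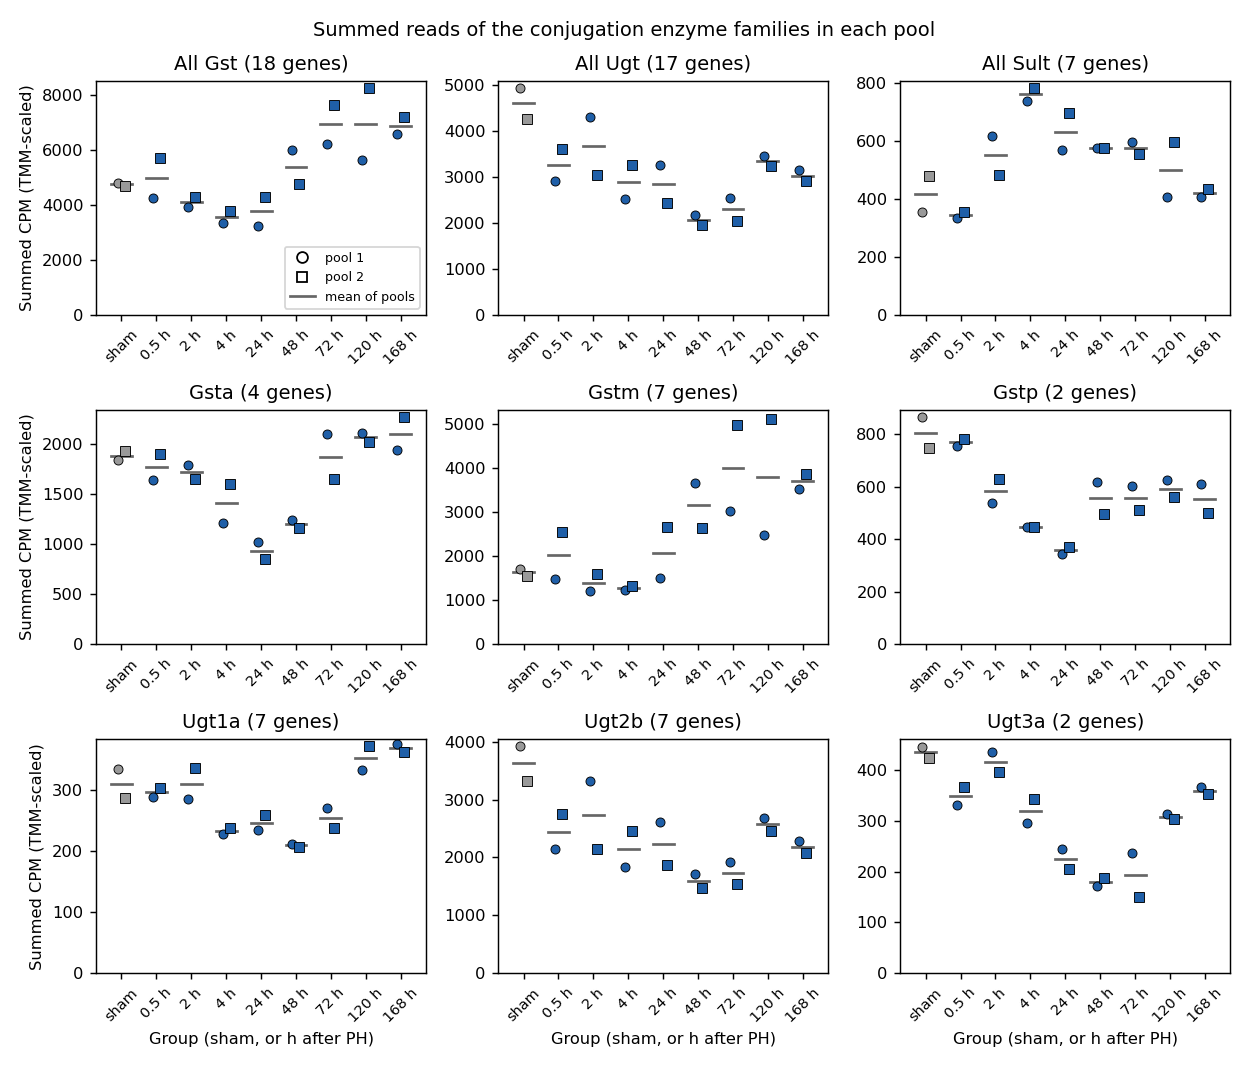
Summed TMM-scaled CPM of all Gst, Ugt and Sult genes and of 6 families in each pool (circle, pool 1; square, pool 2; bar, mean of pools), with sham in grey at the left and times after PH in blue. The Ugt sum was lowest at 48 h in this scaling, at 2186 and 1958 CPM (by totals alone it was lowest at 4 h), and the Gstm panel shows widely spaced pools at 24, 72 and 120 h.

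Scaling matters at 4 h. With libraries scaled by their totals alone the median of 4906 genes moved against sham, by -0.37 on the log2 scale at 4 h, by -0.17 at 2 h and by 0.15 at 48 h, and TMM scaling removes this shift. The deposited RPKM carry it. Tested with limma-trend on log2(RPKM + 1), the 40 genes split into 3 higher and 22 lower at 4 h, 6 and 7 at 24 h, 8 and 12 at 48 h, 10 and 8 at 72 h, and 2 and 1 at 168 h. By edgeR the splits were 4 and 9, 5 and 10, 6 and 15, 9 and 11, and 2 and 3. For 48 h against 4 h the limma split was 18 higher and 2 lower and the edgeR split 10 and 10, and for 168 h against 48 h 7 and 3 against 13 and 2.

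With 2 pools a group, single libraries carried many calls. Of 109 called changes, 36 kept their call with each library left out in turn. For 8 calls, of genes tested in 16 libraries against the lone sham pool there, leaving out sham replicate 1 gives no value, and 1 of these, Gstt2 at 24 h, was kept in every other leave-out. The 13 calls at 4 h became 4 without sham replicate 1, where 30 genes could be tested, and 5 without 4 h replicate 1. The 15 calls at 24 h became 7 without sham replicate 1 or 24 h replicate 2. The 21 calls at 48 h became 13 without sham replicate 1 or 48 h replicate 2. The 20 calls at 72 h became 6 without sham replicate 1, 13 without sham replicate 2 and 3 without 72 h replicate 2. The 5 calls at 168 h became 0 without either sham pool or 168 h replicate 2, 1 without 168 h replicate 1, 3 without either 48 h pool and 12 without either 24 h pool. At 72 h 2 of 20 calls and at 168 h 0 of 5 were kept in every leave-out.

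Alpha-class genes went different ways. Gsta3 (chr1:21240565-21265575, GRCm38.p6), the most abundant of them in mouse liver, conjugates aflatoxin epoxide among other substrates. It fell to 973 and 779 CPM at 24 h and 1068 and 1039 CPM at 48 h, against 1771 and 1873 CPM in sham. Every pool at 24 and 48 h lay below both sham pools. The log2 fold changes were -1.06 (SE 0.18, adjusted p = 0.0022) at 24 h and -0.79 (SE 0.18, adjusted p = 0.00483) at 48 h, and both calls held with each library left out. By 168 h it was at 1818 and 2157 CPM, 0.97 above 48 h on the log2 scale (adjusted p = 0.00678); that call ended without 48 h replicate 2 or 168 h replicate 2, at 0.84 to 0.94.

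Gsta4, which clears the lipid aldehyde 4-hydroxynonenal, moved the other way. It had 154 and 114 CPM at 48 h and 125 and 177 CPM at 72 h, against 60.6 and 53.5 CPM in sham. Its log2 fold changes were 1.23 (SE 0.27, adjusted p = 0.00388) at 48 h and 1.40 (SE 0.27, adjusted p = 0.00534) at 72 h. The 48 h call held with each library left out, and the 72 h call ended without sham replicate 2 or 72 h replicate 2, at 1.15 to 1.32. At 4 h it stood at 26.9 and 49.4 CPM, and 48 h was above 4 h by 1.82 (SE 0.28, adjusted p = 0.000299).

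Gsta1 and Gsta2, alpha genes known to be induced through NRF2 in mouse liver, were low in sham. Gsta1 had 46 and 83 reads at 72 h, or 4.95 and 8.70 CPM, against 1 read in sham replicate 1. The ratio was 54.8, with a 95% exact interval of 9.66 to 2180 that covers counting error only. Sham replicate 2 does not list Gsta1 and could hold up to 6.52 CPM, so 72 h replicate 1 is not shown to lie above it. Among complete libraries, only some from 24 h on reached the depth needed for testing (10 reads in the median library). Gsta1 thus entered the test through groups where it was high, which favoured a call of higher against sham. The edgeR call at 72 h (adjusted p = 0.0466) ended in 7 of the leave-outs, among them 72 h replicate 2, at log2 fold changes of 5.13 to 5.58. Gsta2, at 3.24 to 29.9 CPM in the complete libraries, was called in no comparison. It had 17.4 and 24.5 CPM at 72 h and 18.7 and 19.5 CPM at 168 h, against 6.25 CPM in sham replicate 1. These pools also exceeded the 6.52 CPM that sham replicate 2 could hold. Of the 50-base windows of their transcripts, 89.7% for Gsta1 and 64.2% for Gsta2 also occur in another gene, mostly Gm3776 and Gsta1, so reads that map uniquely cover only part of them.

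Mu-class genes held the largest called rises of the Gst genes that both short tables list. The 7 genes lie together on chromosome 3, and Gstm1 is the most abundant, with 2244 ± 827 RPKM at 72 h against 1002 ± 124 RPKM in sham. Gstm1 was called at no time against sham, and its 72 h pools stood apart, at 2066 and 3316 CPM. Gstm3 had 141 and 587 CPM at 24 h, 753 and 378 CPM at 48 h and 461 and 1026 CPM at 72 h, against 67.7 and 68.7 CPM in sham. All 6 pools exceeded both sham pools, though the pools of 1 time stood far apart at 24 and 72 h. Log2 fold changes were 2.42 (SE 0.69, adjusted p = 0.0281) at 24 h, 3.05 (SE 0.71, adjusted p = 0.00545) at 48 h and 3.45 (SE 0.72, adjusted p = 0.00825) at 72 h. The 48 h call held with each library left out. The calls at 24 and 72 h ended without either sham pool, and without 24 h replicate 2 (1.03 to 2.43 over these) or 72 h replicate 2 (2.77 to 3.46).

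Gstm2 was steadier. It had 178 and 279 CPM at 24 h, 290 and 273 CPM at 48 h and 257 and 372 CPM at 72 h, against 73.2 and 75.1 CPM in sham. The groups did not overlap, and the log2 fold changes of 1.63, 1.92 and 2.09 (SE 0.28 each) kept their calls with each library left out. It fell back by 0.93 on the log2 scale at 168 h against 48 h (adjusted p = 0.0266), a call that ended without any 1 of the 4 pools compared, at -1.07 to -0.80. Per length, Gstm3 made up 18.4% of the family's RPKM at 48 h and 19.0% at 72 h, against 4.51% in sham, and Gstm1 64.7% and 65.6%, against 78.3%.

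Others in the cluster moved less against sham. Gstm4 was called at 168 h, with 97.4 and 107 CPM against 41.9 and 49.9 CPM in sham (log2 fold change 1.15, SE 0.27, adjusted p = 0.0338), a call that ended without either 168 h or either sham pool, at 1.03 to 1.28. Gstm7 was higher at 72 h by 0.68 (adjusted p = 0.006), ending without sham replicate 1 or 72 h replicate 2 at 0.60 to 0.65. Gstm6 was lower at 4 h by 0.51 (log2 fold change -0.51, adjusted p = 0.0463), which ended in 12 leave-outs at -0.57 to -0.43. Between 4 and 48 h 6 of the 7 genes were called higher, where 19.6% of all 12199 genes were. Without 48 h replicate 1 those of Gstm1, Gstm4, Gstm6 and Gstm7 ended, which left 2 of the 6, Gstm2 and Gstm3. Gstm1 rose there by 1.10 (SE 0.32, adjusted p = 0.017), ending without either 4 h pool or 48 h replicate 1 at 0.85 to 1.12. Gstm5, whose exons overlap 4933431E20Rik on the other strand, was called in no comparison. For Gstm3 28.8% and for Gstm1 23.1% of transcript windows are shared with another gene.

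The promoter windows of Gsta3, which fell, and Gstm3, which rose, are shown because NRF2 is known to act on Gst genes through the antioxidant response element. Its core TGACNNNGC was searched on both strands of RefSeq promoter windows of GRCm38.p6, 250 bases up to the start of transcription, and is in capitals. It was found in 3 of 44 windows of 37 conjugation genes (Gsta3, Gstm5 and Gstm7), against 10.2% of all 32851 windows. In Gstm5 it overlaps a match to the aryl hydrocarbon receptor core. The match in Gsta3 is a description of letters, and the absence in Gstm3 holds for this window only.
Gsta3, chr1:21240335-21240584, plus strand: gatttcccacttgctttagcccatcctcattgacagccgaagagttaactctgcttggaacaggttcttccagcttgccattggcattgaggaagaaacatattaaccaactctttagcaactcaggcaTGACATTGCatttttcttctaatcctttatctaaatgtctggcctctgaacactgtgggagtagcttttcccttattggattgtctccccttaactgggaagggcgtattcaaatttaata
Gstm3, chr3:107969175-107969424, minus strand: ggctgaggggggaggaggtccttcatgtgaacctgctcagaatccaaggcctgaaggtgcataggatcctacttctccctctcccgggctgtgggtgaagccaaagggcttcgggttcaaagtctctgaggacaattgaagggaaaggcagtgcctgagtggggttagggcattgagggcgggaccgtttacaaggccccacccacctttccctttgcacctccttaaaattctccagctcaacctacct

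Gstp1, the pi-class gene, is known to be more abundant in the liver of male mice. It fell early, to 439 and 437 CPM at 4 h and 337 and 366 CPM at 24 h, against 854 and 740 CPM in sham. Both times lay below both sham pools, with log2 fold changes of -0.86 (SE 0.15, adjusted p = 0.000648) and -1.18 (SE 0.15, adjusted p = 0.000403), and both calls held with each library left out. At 48, 72 and 168 h it stood at 489 to 611 CPM and was called lower by 0.54 each time. Those calls ended in 2, 3 and 13 leave-outs, sham replicate 1 and replicate 2 of the time in question among them, at -0.70 to -0.38. Gstp2 shares 64.3% of its windows with Gstp1, had 4.18 to 11.9 CPM where listed, and was called in no comparison.

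Of the theta-class genes, Gstt2 and Gstt3 rose. Gstt3 had 104 and 78.6 CPM at 4 h, 76.2 and 93.9 CPM at 24 h, 102 and 95.04 CPM at 48 h and 96.6 and 112 CPM at 72 h, against 26.5 and 48.7 CPM in sham. Each of these 8 pools exceeded both sham pools, though sham replicate 1 was well below sham replicate 2. The log2 fold changes of 1.28, 1.18, 1.39 and 1.47 (SE 0.33 to 0.34) lost their calls without sham replicate 1, with values of 0.80 to 1.38 over the leave-outs that ended a call; 4 h replicate 1, 24 h replicate 2 and 72 h replicate 2 also ended theirs. Exons of Gstt3 overlap those of Gm20441 on the same strand. Gstt2 had 58.6 and 49.0 CPM at 24 h, 40.9 and 40.8 CPM at 48 h and 43.2 and 50.1 CPM at 72 h, against 20.6 and 27.4 CPM in sham, the second of which its test could not use. The log2 fold changes were 1.36, 0.96 and 1.15 (SE 0.26 to 0.27). The 24 h call held with each library left out except sham replicate 1, without which there is no value; the others ended without either pool of their time, and that at 72 h also without either 48 h pool, at 0.93 to 1.19. Gstt1, the most abundant of the family at 192 ± 1.61 RPKM at 72 h against 148 ± 14.4 RPKM in sham, was called in no comparison.

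Gsto1, which reduces dehydroascorbate, fell to 64.9 and 71.7 CPM at 24 h and 70.7 and 72.2 CPM at 48 h, against 108 and 119 CPM in sham. The groups did not overlap, and the log2 fold changes of -0.73 and -0.67 (SE 0.13 each) kept their calls with each library left out. At 72 h it was called at -0.44, which ended in 5 leave-outs at -0.51 to -0.38. At 168 h it was 0.88 above 48 h (adjusted p = 0.0012), with each library left out too. Gstk1, of mitochondria and peroxisomes, was called at 168 h against 48 h only, higher by 0.45 (adjusted p = 0.0352), which ended without any 1 of the 4 pools, at 0.36 to 0.54.

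**Figure D3:**
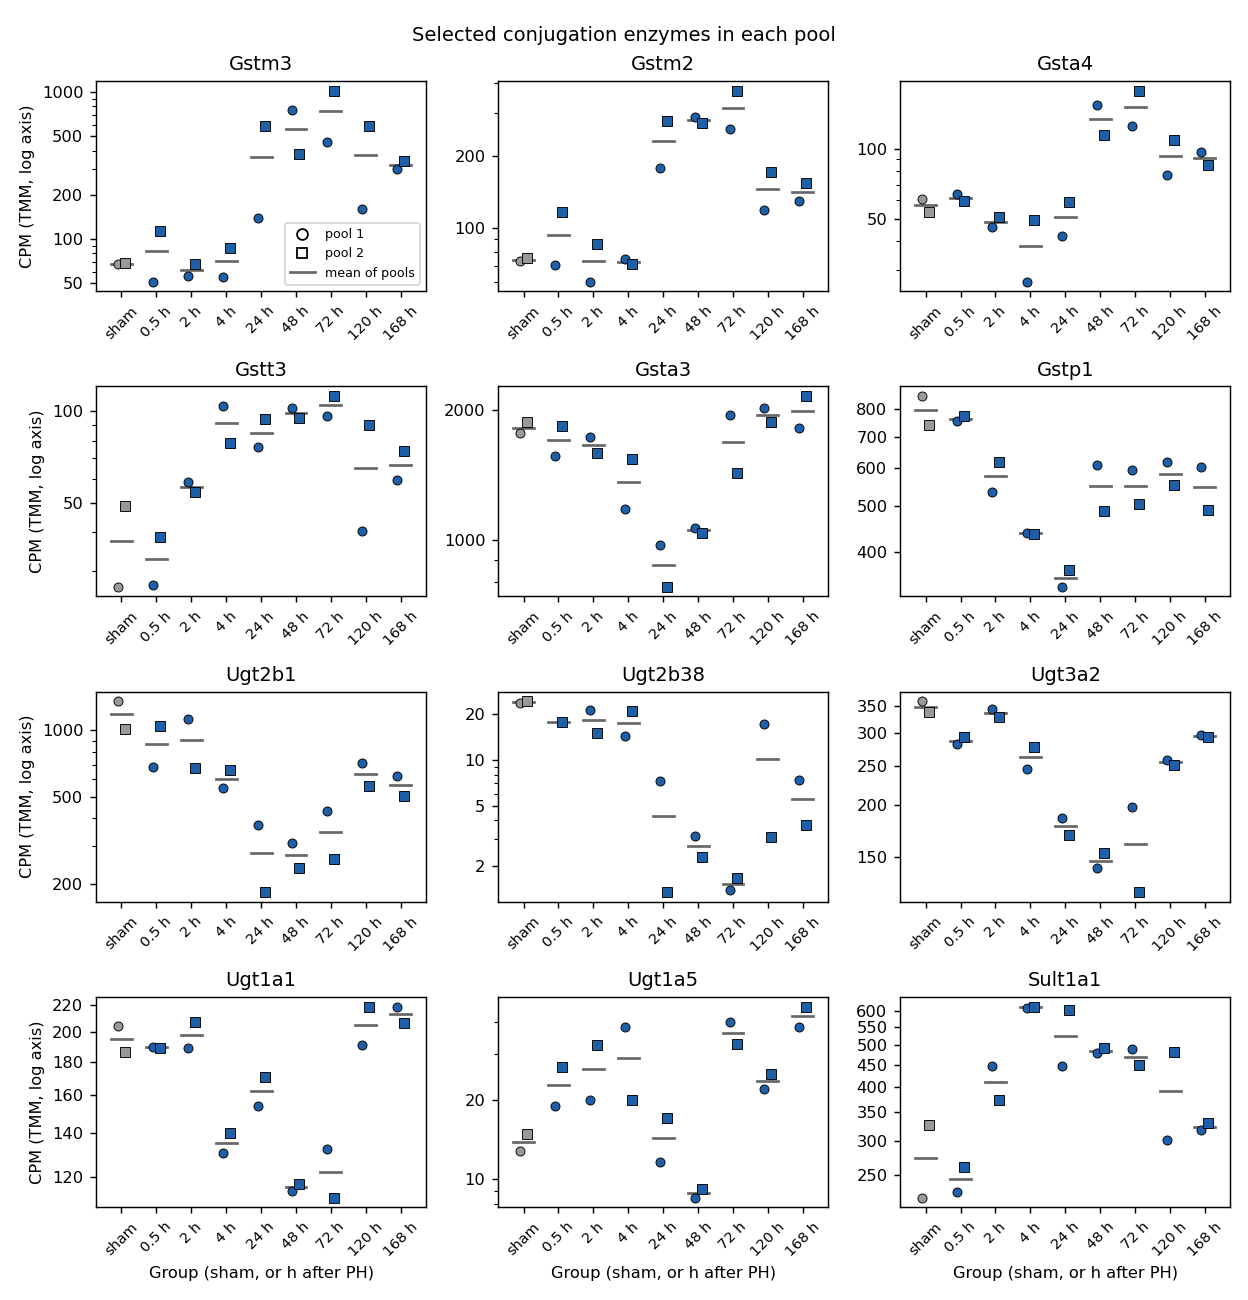
TMM-scaled CPM on a log axis in each pool for 12 conjugation genes, with sham in grey at the left and times after PH in blue (circle, pool 1; square, pool 2; bar, mean of listed pools). Gstm3 reached 753 and 378 CPM at 48 h with sham at 67.7 and 68.7 CPM, while Ugt2b1 stood at 308 and 236 CPM at 48 h with sham at 1357 and 1016 CPM.

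The Ugt1a genes share 1 locus on chromosome 1 (GRCm38.p6), where each has a first exon and promoter of its own and all end in the same exons. In Ugt1a1 all 7 members share coding bases 869 to 1608 of 1608 in every 50-base window, so reads from there cannot tell them apart. For Ugt1a6a all 2248 windows of the transcript used here also lie in that of Ugt1a7c. The deposited unique counts still held 3454 reads for Ugt1a6a and 54 for Ugt1a7c over the 16 complete tables. The full overlap thus holds for these transcripts, and the counting did assign reads to Ugt1a6a. Exons of the locus also overlap Gm20528 on the other strand, and whether counting used strand is not known here. Shown first, in lower case, are the first 50 coding bases of the 3 members described most, which differ, and then, in capitals, bases 869 to 918 of Ugt1a1, which every member holds (GENCODE M21 transcripts).
Ugt1a1, coding bases 1 to 50: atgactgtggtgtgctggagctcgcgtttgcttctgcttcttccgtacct
Ugt1a5, coding bases 1 to 50: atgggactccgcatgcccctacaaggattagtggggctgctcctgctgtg
Ugt1a9, coding bases 1 to 50: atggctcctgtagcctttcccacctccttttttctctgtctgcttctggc
Ugt1a1, coding bases 869 to 918, shared: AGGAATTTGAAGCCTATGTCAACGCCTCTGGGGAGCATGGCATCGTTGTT

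Unique reads covered 3.4% to 29.0% of these genes' length by the deposited coverage, so RPKM over the full length understates them, and their levels are not set against those of other families here. Changes of 1 gene between groups are not touched by its length.

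**Figure D4:**
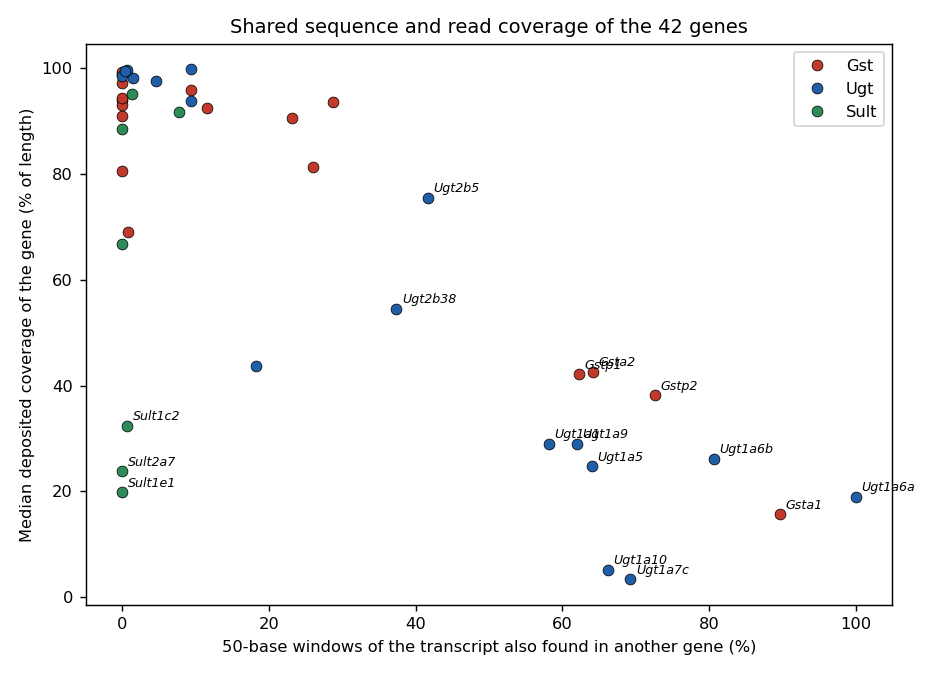
Share of each transcript's 50-base windows also found in another gene (horizontal axis, %) and the median deposited coverage of the gene over the complete tables (vertical axis, % of its length) for the 42 genes, coloured by family. The Ugt1a genes, Gsta1, Gsta2, Gstp1 and Gstp2 lie at the lower right, with 58.2% to 100% of windows shared and 3.4% to 42.6% of length covered.

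Ugt1a1 makes bilirubin glucuronide. It had 131 and 140 CPM at 4 h, 114 and 117 CPM at 48 h and 133 and 112 CPM at 72 h, against 205 and 187 CPM in sham. These 6 pools lay below both sham pools. The log2 fold changes were -0.53 (SE 0.12, adjusted p = 0.00298), -0.76 (SE 0.12, adjusted p = 0.000476) and -0.68 (SE 0.12, adjusted p = 0.00271). The calls at 4 and 48 h held with each library left out, and that at 72 h ended without 72 h replicate 2, at -0.54. At 168 h it was back to 219 and 207 CPM, 0.94 above 48 h (adjusted p = 0.00147), with each library left out too.

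Ugt1a5, from the same locus, followed another course. It had 38.2 and 20.003 CPM at 4 h, 39.8 and 32.8 CPM at 72 h and 38.1 and 45.9 CPM at 168 h, against 12.8 and 14.8 CPM in sham. Those 6 pools exceeded both sham pools, and the log2 fold changes were 1.08, 1.40 and 1.61 (SE 0.30 to 0.31). These calls ended without either sham pool, and also without 4 h replicate 1 or 168 h replicate 2, at 0.55 to 1.72. At 48 h it was at 8.46 and 9.09 CPM, below both 4 h pools (log2 fold change -1.73, SE 0.33, adjusted p = 0.00132) and below both 168 h pools (168 h against 48 h 2.32, SE 0.32, adjusted p = 0.000713). Both of these steps held with each library left out.

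Each call of the other Ugt1a genes ended in some leave-outs. Ugt1a6a and Ugt1a6b, which glucuronidate small phenols, were called lower at 4 h, by 0.55 (log2 fold change -0.55) and 0.52 (-0.52), and Ugt1a6b also at 48 and 72 h, at -0.50 and -0.60. Without sham replicate 1 each of these 4 calls ended, at -0.48 to -0.38 over all leave-outs that ended the calls at 48 and 72 h and -0.52 to -0.40 at 4 h. Ugt1a9 had 25.6 and 27.6 CPM at 24 h, against 55.4 and 35.3 CPM in sham (log2 fold change -0.77, SE 0.25, adjusted p = 0.05 as rounded), and 15 of the leave-outs ended that call, at -0.83 to -0.41. Ugt1a7c and Ugt1a10 stayed at or under 1.46 CPM in every complete library. At 168 h 4 of the 5 tested genes were called above 48 h, where 6.94% of all genes were. Those of Ugt1a6a and Ugt1a6b ended without any 1 of the 4 pools, at 0.45 to 0.75, and with DESeq2 and limma, which left 2, Ugt1a1 and Ugt1a5.

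The promoters of Ugt1a1, which fell, and Ugt1a5, which rose, are shown because each Ugt1a gene starts from its own. The letters GCGTG, the core bound by the aryl hydrocarbon receptor, were searched on both strands and are in capitals. They occurred in 8 of the 44 windows, that of Ugt1a5 among them, against 28.2% of all 32851. The match describes letters, and its absence from Ugt1a1 holds for this window only.
Ugt1a1, chr1:88211709-88211958, plus strand: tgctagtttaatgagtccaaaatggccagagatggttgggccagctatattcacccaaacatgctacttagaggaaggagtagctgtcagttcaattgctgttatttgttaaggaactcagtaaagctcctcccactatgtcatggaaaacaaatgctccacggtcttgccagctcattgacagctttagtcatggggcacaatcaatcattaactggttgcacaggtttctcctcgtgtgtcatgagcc
Ugt1a5, chr1:88165762-88166011, plus strand: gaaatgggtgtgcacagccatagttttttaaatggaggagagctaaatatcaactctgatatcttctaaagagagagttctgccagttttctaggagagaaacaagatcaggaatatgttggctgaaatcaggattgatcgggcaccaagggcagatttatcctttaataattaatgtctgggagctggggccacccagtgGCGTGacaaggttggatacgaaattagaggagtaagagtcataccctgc

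The Ugt2b genes and Ugt2a3, which glucuronidate steroids and bile acids, lie together on chromosome 5 and mostly fell. At 48 h 5 of the 7 Ugt2b genes and Ugt2a3 were called lower, where 18.9% of the 4906 genes and 7.25% of the 12199 were. Of these, Ugt2b38 was tested in 16 libraries and the others in 18. Ugt2b1 had 371 and 184 CPM at 24 h, 308 and 236 CPM at 48 h and 433 and 260 CPM at 72 h, against 1357 and 1016 CPM in sham. All 6 pools lay below both sham pools, with log2 fold changes of -2.09 (SE 0.36, adjusted p = 0.00228), -2.12 (SE 0.36, adjusted p = 0.000952) and -1.78 (SE 0.36, adjusted p = 0.00673). The calls at 24 and 48 h held with each library left out; that at 72 h ended without sham replicate 1 or 72 h replicate 2, at -1.55 to -1.44. At 4 h it was called at -0.97, which 9 leave-outs ended, at -1.17 to -0.75. Per length Ugt2b1 made up 15.9% of the family's RPKM at 48 h, against 29.6% in sham.

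Ugt2b38, a gene of low abundance, fell the furthest of the family. It had 3.15 and 2.30 CPM at 48 h and 1.40 and 1.68 CPM at 72 h, against 23.8 and 24.3 CPM in sham. Its test used the first sham pool alone, and gave log2 fold changes of -3.14 (SE 0.78, adjusted p = 0.0183) and -3.96 (SE 0.83, adjusted p = 0.0191). Both ended without either pool of their time, at -3.41 to -2.97 and -4.10 to -3.90. At 120 h its pools were far apart, at 17.2 and 3.10 CPM. Ugt2b37 had 1.17 and 1.14 CPM at 24 h, against 6.88 CPM in sham replicate 1; sham replicate 2 does not list it and could hold up to 6.52 CPM. Its log2 fold change of -2.57 (SE 0.57, adjusted p = 0.0315) ended without either 24 h pool, at -2.63 to -2.59. Ugt2b38 and Ugt2b5 share windows with each other, 37.4% and 41.7% of theirs being shared in all.

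Ugt2b36 and Ugt2b5 are among the most abundant of the family, at 221 ± 19.3 and 177 ± 19.3 RPKM at 48 h, against 388 ± 35.9 and 402 ± 21.4 RPKM in sham. Ugt2b36 was called at 4, 24, 48 and 72 h (log2 fold changes -0.54, -0.80, -0.97 and -0.57) and Ugt2b5 at 4, 48 and 72 h (-0.66, -1.34 and -1.28). The 48 h calls of both held with each library left out. Of the others, that of Ugt2b5 at 72 h ended only without 72 h replicate 2, at -1.07; those at 4 h ended without either sham pool or 4 h replicate 1, at -0.69 to -0.40; those of Ugt2b36 at 24 and 72 h ended in 2 and 10 leave-outs, sham replicate 1 among them, at -0.73 to -0.44. Ugt2a3 fell to 91.6 and 87.6 CPM at 48 h, against 245 and 227 CPM in sham (log2 fold change -1.40, SE 0.27, adjusted p = 0.00202), with each library left out too. Its calls of -0.83 at 24 h and -0.97 at 72 h ended in 12 and 4 leave-outs, at -1.04 to -0.47.

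Ugt2b35, singled out after its values were seen, was lower at 4 h, at 99.5 and 133 CPM, against 248 and 229 CPM in sham (log2 fold change -1.04, SE 0.17, adjusted p = 0.000422). At 48 h it was at 262 and 216 CPM, 1.05 above 4 h (SE 0.19, adjusted p = 0.000938), and both calls held with each library left out. Ugt2b34 was called at 48 h (-0.76, adjusted p = 0.038) and 168 h (-1.04, adjusted p = 0.0417). Both ended without either sham pool or either pool of their time, among others, at -1.16 to -0.63.

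Both Ugt3a genes fell, and were called higher at 168 h than at 48 h. In humans, UGT3A enzymes are known to use sugars other than glucuronic acid. Ugt3a2 had 186 and 169 CPM at 24 h, 140 and 153 CPM at 48 h and 198 and 123 CPM at 72 h, against 360 and 338 CPM in sham. No pool overlapped, and the log2 fold changes of -0.97, -1.25 and -1.12 (SE 0.17 each) kept their calls with each library left out. At 168 h it was 1.07 above 48 h (SE 0.20, adjusted p = 0.00394), with each library left out too. Ugt3a1 had 31.8 and 35.3 CPM at 48 h, against 86.0 and 85.1 CPM in sham, a log2 fold change of -1.35 (SE 0.25, adjusted p = 0.00163) that held with each library left out. Its changes of -0.87 at 24 h and -1.41 at 72 h were also called; the first ended without either sham pool or 24 h replicate 2, at -0.88 to -0.57, and the other without 72 h replicate 2, at -1.19. Its call at 168 h against 48 h ended without any 1 of the 4 pools, at 0.87 to 1.11.

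Sult1a1, the phenol sulfotransferase and the most abundant Sult gene, rose. It had 611 and 615 CPM at 4 h, 447 and 603 CPM at 24 h, 480 and 492 CPM at 48 h and 490 and 450 CPM at 72 h, against 222 and 327 CPM in sham. All 8 pools exceeded both sham pools, and the log2 fold changes were 1.16, 0.94, 0.83 and 0.78 (SE 0.22 each). The 4 h call (adjusted p = 0.0012) held with each library left out. The others ended without sham replicate 1 or replicate 2 of their time, and that at 72 h also without its replicate 1, at 0.53 to 0.85. Exons of Sult1a1 overlap those of Sgf29 on the other strand, and whether counting used strand is not known here, so reads from that overlap cannot be told apart.

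Sult1e1, which inactivates oestrogens, was scarce in sham. It had 23 and 44 reads at 4 h, or 3.72 and 7.10 CPM, and 4.06 and 10.5 CPM at 24 h, against 2 reads, or 0.2501 CPM, in sham replicate 1. The ratio at 4 h was 21.6, with a 95% exact interval of 5.76 to 182 that covers counting error only. Sham replicate 2 does not list the gene and could hold up to 6.52 CPM, which 4 h replicate 1 and 24 h replicate 1 do not exceed. Only its pools at 4, 24 and 48 h reached the depth needed for testing (10 reads in the median library). Sult1e1 thus entered the test through groups where it was high, which favoured a call of higher against sham. The 4 h call ended without 4 h replicate 2, at a log2 fold change of 3.80. At 168 h it was at 0.329 and 0.213 CPM, against 1.97 and 4.50 CPM at 48 h (log2 fold change -3.46, adjusted p = 0.0249), a call that 3 leave-outs ended, 48 h replicate 2 and both 168 h pools, at -3.77 to -2.75.

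Sult1d1, which sulfates catecholamines in mice, had 47.3 and 45.5 CPM at 48 h and 31.4 and 41.7 CPM at 168 h, against 74.2 and 93.4 CPM in sham. These pools lay below both sham pools (log2 fold changes -0.85 and -1.19, SE 0.25 each), and the calls ended without sham replicate 2 or either pool of their time, that at 168 h also without sham replicate 1, at -1.41 to -0.68. At 0.5 h Sult1d1 was as low, at 47.7 and 48.3 CPM, without a call. It was at 82.7 and 116 CPM at 4 h, and the fall of 1.09 at 48 h against 4 h (log2 fold change -1.09, adjusted p = 0.00338) held with each library left out. Sult5a1 had 13.7 and 6.10 CPM at 48 h, against 22.1 and 28.7 CPM in sham (log2 fold change -1.36, SE 0.44, adjusted p = 0.029), and 3 leave-outs ended this, both sham pools and 48 h replicate 2, at -1.53 to -0.89. Sult2a7, at no more than 3.20 CPM, was called at 48 h against 4 h only (log2 fold change -2.38, adjusted p = 0.0322), which ended without any 1 of the 4 pools, at -2.95 to -2.04. Sult1b1 and Sult1c2 were called in no comparison.

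Between 48 and 168 h 13 of the 40 genes were called higher and 2 lower, where 6.94% and 6.85% of all 12199 genes were. The 13 hold 8 of the 15 Ugt genes. Between 4 and 48 h 10 were called higher and 10 lower, where 19.6% and 19.5% were; 9 of the 10 higher were Gst genes and 7 of the 10 lower Ugt genes. The 15 calls between 48 and 168 h became 4 to 8 without any 1 of the 4 pools, and the 20 between 4 and 48 h became 11 without 4 h replicate 2 or 48 h replicate 1.

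Genes that supply the co-substrates were called in both directions, and all values in parentheses here are log2 fold changes against sham. The counts of this and the next lists stand beside the shares of all genes given above, 35.7%, 17.3%, 36.8% and 12.6% of the 4906 genes at 4, 24, 48 and 72 h and 15.5%, 2.93%, 14.9% and 3.82% of the 12199, and a count near them is no result about a list. Of 8 tested genes of glutathione supply, 2 were called lower at 4 h and 2 higher at 24 h and at 48 h. Gss, the glutathione synthetase, had 109 and 115 CPM at 48 h, against 46.4 and 42.9 CPM in sham (log2 fold change 1.33, SE 0.11, adjusted p = 1.3e-05), and was also called at 24 and 72 h, at 0.69 and 0.75. Gclc and Gclm, the subunits of the enzyme that makes the glutathione precursor, were lower at 4 h, at -0.81 and -0.51, and Gsr, which recycles glutathione, was higher at 24 and 48 h, at 0.48 and 0.56. Of 4 genes of UDP-glucuronic acid supply, 1 was called higher and 1 lower at 4 h and likewise at 48 h. Ugp2, which makes UDP-glucose, was lower at both times (-0.83 and -0.77), Ugdh, which oxidises it, was higher at 4 h (0.42), and Slc35d1, a UDP-sugar carrier, was higher at 48 h (0.53). Of 5 genes of sulfate donor supply, 2 were lower at 4 h: the sulfate carrier Slc26a1 (-1.07, adjusted p = 2.2e-05) and the sulfite oxidase Suox (-0.76). The PAPS synthase Papss2 was higher at 72 h (0.71).

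Of 11 other conjugating enzymes tested, 1 was called higher and 3 lower at 48 h. The methyltransferase Nnmt was higher at 4 h by 2.56 (adjusted p = 8.67e-06) and the related Inmt lower at 24 h (-2.92, adjusted p = 2.43e-05), while the microsomal transferase Mgst1 was lower at 48 h (-0.76). Of 8 carriers of conjugates, 3 were lower and none higher at 48 h, namely the uptake carriers Slco1a1 (-2.70) and Slco1b2 (-1.94) and the efflux pump Abcg2 (-0.74). Of 13 regulators, 4 were called higher and 4 lower at 4 h, among them Ahr (1.14) and its partner Arnt (0.73), and Nr1i3, which encodes CAR (-1.20), and Keap1, the inhibitor of NRF2 (-0.61). At 24 h Nr1i3 was higher by 1.12, and at 48 h Keap1 was higher by 0.36. Nfe2l2, which encodes NRF2, was called higher at 24, 48 and 72 h (0.71, 0.70 and 0.90).

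Targets of those regulators outside the 3 families differed too. Of 8 known NRF2 targets, 3 were higher and 2 lower at 4 h, and 4 were higher and none lower at 24 h and at 48 h. Gclc, Gclm and Gsr, named above, are also in this list. Nqo1 had 21.8 and 19.3 CPM at 48 h, against 2.88 and 7.77 CPM in sham. Its log2 fold change of 2.81 (SE 0.50, adjusted p = 0.00383) rests on the first sham pool alone, since 0.5 h replicate 1 does not list it. Hmox1 was higher at 4 h by 3.16 (adjusted p = 0.000154) and Txnrd1 by 0.64. Of 7 CAR and PXR targets 4 were higher and none lower at 4 h, with log2 fold changes of 3.57 for Cyp2b10, 1.54 for Por and 0.95 for Cyp3a13, and 2 were higher and 1 lower at 48 h. At 72 h none was higher and 3 were lower, namely Alas1 (-1.21), Cyp2c29 (-0.79) and Cyp3a13 (-0.59). Of 4 aryl hydrocarbon receptor targets, 1 was higher and 1 lower at 4 h: Tiparp (4.04, adjusted p = 0.000118) and Cyp1a2 (-1.50). At 24 h the log2 fold changes were 6.16 (SE 1.54) for Cyp1a1, 2.06 (SE 0.51) for Nqo1, -0.71 for Tiparp and 0.07 for Cyp1a2. The first 3 of these rest on the first sham pool alone. At 48 and 72 h Cyp1a2 was at -1.24 and -1.31. Nqo1 is counted in both lists.

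Genes that are more abundant in male mouse liver were also followed, because several conjugation genes are known to differ between the sexes in mice. All 9 tested were lower at 48 h, with a median log2 fold change of -2.26, and 8 of 9 at 72 h, with a median of -2.25. Among them Cyp2d9 was at -1.33, Hsd3b5 at -3.12, Selenbp2 at -2.26 and Mup20 at -2.67 at 48 h. Slco1a1 is counted in this list and among the carriers. Of 6 tested genes more abundant in females, 1 was higher at 48 h and none lower. As the sex of these mice was not labelled, no direction is drawn from it, and whether the lists share a cause with the Ugt genes was not tested.

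Markers of other liver cells moved with some of these times. Summed over 6 detected neutrophil markers, complete libraries had 53.9 to 120 CPM at 4 h, against 10.9 CPM in sham replicate 1, and 6 cholangiocyte markers 97.4 to 158 CPM, against 39.1 CPM. Only 1 of the 6 neutrophil and 2 of 5 tested cholangiocyte markers were called there, all higher. Of all genes 16.9% of the 4906 and 7.22% of the 12199 were called higher at 4 h. The 6 stellate cell markers had 297 to 545 CPM at 72 h, against 247 CPM in sham replicate 1, with a median log2 fold change of 0.65. Other sums were lower. Erythroid markers had 79.9 to 90.9 CPM at 24 h and 71.0 to 120 CPM at 72 h, against 193 CPM in sham replicate 1. The median log2 fold changes of the 4 tested were nonetheless 0.64 and 0.77. Sinusoidal endothelial markers had 210 to 227 CPM at 48 h, against 266 CPM in sham replicate 1. The 6 macrophage markers had 467 to 979 CPM at 24 h, 717 to 817 CPM at 120 h and 827 to 1001 CPM at 168 h, against 365 CPM. Of these 6, 3 were called higher and none lower at 168 h against sham, where 5.75% of the 4906 genes and 0.082% of the 12199 were called. At 168 h against 48 h 5 were higher, where 6.94% of the 12199 were. Against sham, 1 was higher and 2 lower at 48 h, and 1 higher and 1 lower at 72 h. At those times 36.8% and 12.6% of the 4906 genes and 14.9% and 3.82% of the 12199 were called. No detected marker was at 0 in every complete library. The hepatocyte sum was 75070 to 89325 CPM at 24 h and 115980 to 118118 CPM at 48 h, against 120402 CPM in sham replicate 1. Of the 8 hepatocyte markers, 3 were called lower at 24 h and 1 at 48 h, and none higher. At those times 9.46% and 18.9% of the 4906 genes were lower. The median log2 fold changes of the 8 were -0.17 and -0.06. The part of these shifts in the changes of conjugation genes was not tested.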

How the data were processed

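Liver RNA-seq of 18 libraries, each a pool of 3 mice, was analysed from 1 deposited table per library. Per the file headers, each deposited table gives the count of uniquely mapped reads per gene, an RPKM value made from it by the authors, the gene length, and the percent of that length covered by reads. Per the submitters' processing notes the genome build is mm10. Aligner, counter and strand setting: not given in the sources used here. Library totals came from the file headers. The tables of sham replicate 2 and 0.5 h replicate 1 list only 8026 and 4908 genes, with lowest counts of 52 and 157, so an unlisted gene was treated as unknown.

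Counts were tested with edgeR 4.0.16 (quasi-likelihood F test, TMM factors, R 4.3.3) with group as the only term, once with all 18 libraries, on the 4906 genes that both short tables hold (BCV 0.139), and once with the 16 complete ones, on 12199 genes (BCV 0.166). Genes were kept if 2 or more libraries reached the CPM equal to 10 reads at median depth, and if their reads summed to 15 or more. A gene tested in 18 libraries takes its result from there, except that the steps from 4 to 48 h and from 48 to 168 h come from the 16. Adjusted p-values are Benjamini-Hochberg values over all genes of a test, and the SE is the log2 fold change over the square root of F. The procedure was tested on simulated data. Replicates are pools, and intervals for low counts are exact, at 95%, for counting error only. A count of 0 allows 3 reads, or 0.295 to 0.485 CPM.

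Named genes were the most abundant per length in each family and every called gene, with values per pool for the 3 largest changes of a family, and at most 4 genes of each pathway list. Nfe2l2 was added to the 4 named regulators later. The members and lists were chosen with earlier results of these data known, and the lists overlap. Promoters are RefSeq windows of GRCm38.p6, transcripts are GENCODE M21. Alternatives were DESeq2 1.42.0, RLE factors, limma 3.58.1 on log2(RPKM + 1), no filter, only the groups compared, unlisted genes as 0, 17 libraries (without 0.5 h replicate 1), the replicate number as a block, and each library left out.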

Additional observations from a re-analysis of the deposited data

Results flagged for a closer look

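Log2 fold changes against sham of 4 genes had opposite signs at 4 and 48 h, and edgeR's test of 48 h against 4 h called the difference. It was 1.82 for Gsta4, 1.22 for Gstt2, -1.09 for Sult1d1 and -1.73 for Ugt1a5. For each of them this call held with each library left out, while Sult1d1 lost it with limma on log2(RPKM + 1) and Gstt2 lost it with unlisted genes set to 0.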

How the results depend on the processing

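Counts of called conjugation genes moved by over 1.5 times under these alternatives. DESeq2 called 2 genes at 0.5 h, 3 genes at 2 h, 5 genes at 120 h and 13 genes at 168 h (8 higher, 5 lower). Limma on log2(RPKM + 1) called 2 at 2 h, 25 at 4 h and 3 at 168 h, and gave the 1 turned direction, Gsto1 at 48 h against 4 h, at 0.09 in place of -0.44. Without a filter 2 were called at 120 h and 8 at 168 h. With only the groups compared 1 gene was called at 2 h, 8 genes at 24 h, 19 genes at 168 h and 25 genes between 48 and 168 h. With unlisted genes as 0 the counts were 5 (4 h), 8 (24 h), 11 (72 h) and 0 (168 h). The cause was not tested. Of 109 calls, DESeq2 lost 3, RLE factors 6, limma 26, no filter 2, only the groups compared 11, unlisted genes as 0 51 and 17 libraries 4.

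With 1 library left out, the counts ranged from 0 to 0 (0.5 h), 0 to 1 (2 h), 4 to 15 (4 h), 7 to 16 (24 h), 13 to 24 (48 h), 3 to 21 (72 h), 0 to 1 (120 h), 0 to 12 (168 h), 11 to 21 (48 h against 4 h), 4 to 16 (168 h against 48 h) and 33 to 36 for differences among groups. Where a group is left with 1 pool, it is assumed to vary like the others.

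The labels do not say that a replicate number marks a shared batch, and the main test did not pair the samples by it. Differences between pools correlated between groups at -0.55 to 0.53. Correlations of both signs cannot show whether some of the groups share a batch. With the replicate number as a block 1 call of 109 was lost, and the counts were 13 (4 h), 17 (24 h), 21 (48 h), 22 (72 h), 1 (120 h), 9 (168 h), 21 (48 h against 4 h), 17 (168 h against 48 h) and 34 (among groups).

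Scaled by totals alone, summed levels were 2773 against 3553 CPM by TMM for Gst at 4 h, 2258 against 2890 CPM for Ugt at 4 h, 2344 against 2072 CPM for Ugt at 48 h, 593 against 760 CPM for Sult at 4 h and 649 against 575 CPM for Sult at 48 h. Log2 ratios of mean family sums against sham turned for Gstt at 4 h (-0.22 by totals, 0.16 by TMM) and Gsta at 72 h (0.09 by totals, -0.01 by TMM).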
